A study of Saccharomyces cerevisiae with 8 samples.

Results

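The enzymes of the tricarboxylic acid (TCA) cycle were followed through 10 nuclear genes of budding yeast (Saccharomyces cerevisiae), out of 6692 gene identifiers counted in the study. The genes were taken by a list of identifiers that uses no measured value. They are CIT1, ACO1, IDH1, IDH2, KGD1, KGD2, LSC1, FUM1, MDH1 and MDH2. All 10 passed the low-count filter that kept 5336 genes. The 4 groups of 2 libraries each were compared, all from whole cells grown in the rich glucose medium YEPD at 30 °C, harvested at an OD600 of 0.6 after 2 min in 100 ug/ml of the elongation inhibitor cycloheximide. A ribosome footprint is the stretch of mRNA that a ribosome shields from RNase I. Monosome footprints came from gradient fractions holding single 80S ribosomes, polysome footprints from fractions holding mRNAs with several ribosomes, and global footprints from lysate that was digested without prior fractionation. The mRNA libraries were made from fragmented RNA of the lysate after depletion of rRNA. All groups share the medium and the drug. The strain and genotype are not given in the sources used here.

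The TCA cycle joins acetyl-CoA to oxaloacetate and oxidises the product stepwise in the mitochondrial matrix, which yields reducing power for respiration and carbon skeletons for amino acids such as glutamate. Baker's yeast ferments when glucose is plentiful, and many genes of the cycle are then repressed. The proteins are made on cytosolic ribosomes and imported into mitochondria, except that the malate dehydrogenase Mdh2 stays in the cytosol and the fumarase Fum1 is found in both compartments. The label of the group thus holds for the annotated symbols, with MDH2 as the member whose product does not act in the mitochondrial cycle. Isoenzymes outside the 10 include the peroxisomal citrate synthase Cit2 of the glyoxylate cycle and the peroxisomal malate dehydrogenase Mdh3.

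Positions are those of the R64 reference annotation. CIT1 (YNR001C, chromosome XIV, 629622 to 631061) encodes mitochondrial citrate synthase, and ACO1 (YLR304C, chromosome XII, 735212 to 737548) encodes aconitase. IDH1 (YNL037C, chromosome XIV, 557920 to 559002) and IDH2 (YOR136W, chromosome XV, 580250 to 581359) encode the regulatory and the catalytic subunit of NAD-dependent isocitrate dehydrogenase. KGD1 (YIL125W, chromosome IX, 122689 to 125733) and KGD2 (YDR148C, chromosome IV, 753675 to 755066) encode the dehydrogenase and the succinyltransferase component of the alpha-ketoglutarate dehydrogenase complex. LSC1 (YOR142W, chromosome XV, 593057 to 594046) encodes the alpha subunit of succinyl-CoA ligase and FUM1 (YPL262W, chromosome XVI, 47336 to 48802) encodes fumarase. MDH1 (YKL085W, chromosome XI, 279123 to 280127) and MDH2 (YOL126C, chromosome XV, 81787 to 82920) encode the mitochondrial and the cytosolic malate dehydrogenase, the latter used in gluconeogenesis. Coding lengths ran from 990 nt in LSC1 to 3045 nt in KGD1, and none of the 10 overlapped another gene of that annotation.

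Libraries held 552992 to 8686385 counts, with the global footprint and mRNA libraries the shallowest. Together the 10 genes took 0.141% and 0.171% of the counts in the monosome libraries, 0.165% and 0.195% in the polysome libraries, 0.212% and 0.261% in the global libraries and 0.329% and 0.386% in the mRNA libraries. Their raw counts ranged from 35 for CIT1 in an mRNA library to 3413 for ACO1 in a monosome library. ACO1 alone supplied 24.6% and 31.0% of the members' counts in monosomes and 52.0% and 55.9% in mRNA. Levels below are CPM, counts brought to a shared depth with TMM factors, given for library 1 and then library 2 of each group. Whether paired libraries stem from separate cultures is not stated in the labels, and the p-values therefore cover the variation among libraries alone, possibly technical in origin.

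Genes of different length are set side by side as CPM per kb of coding length. By this measure IDH2, ACO1 and IDH1 were among the 5 highest of the 10 genes in each kind of library, and KGD1 was lowest in each kind of footprint. In polysomes IDH2 stood at 375 ± 53.3 CPM per kb (SD, n = 2), above LSC1 at 209 ± 2.96, IDH1 at 206 ± 35.5 and ACO1 at 188 ± 23.9, whose libraries overlapped one with the next, and KGD1 stood at 31.4 ± 0.0437. In monosomes IDH2 (177 ± 22.1) was followed by MDH2 (154 ± 7.72) and ACO1 (152 ± 41.5). The ACO1 libraries, at 122 and 181, overlapped those of MDH2 and also those of IDH2, at 162 and 193. In global footprints ACO1 (265 ± 44.1), IDH2 (230 ± 28.9), IDH1 (216 ± 60.5) and LSC1 (177 ± 11.8) overlapped one with the next. In mRNA ACO1 stood alone at 1132 ± 97.9 CPM per kb, above IDH2 at 438 ± 48.2, with CIT1 lowest at 43.1 ± 7.52. Against all genes tested, ACO1 mRNA was higher per kb than 97.2% of them, while KGD1 in monosomes was higher than 42.2%.

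**Figure D1:**
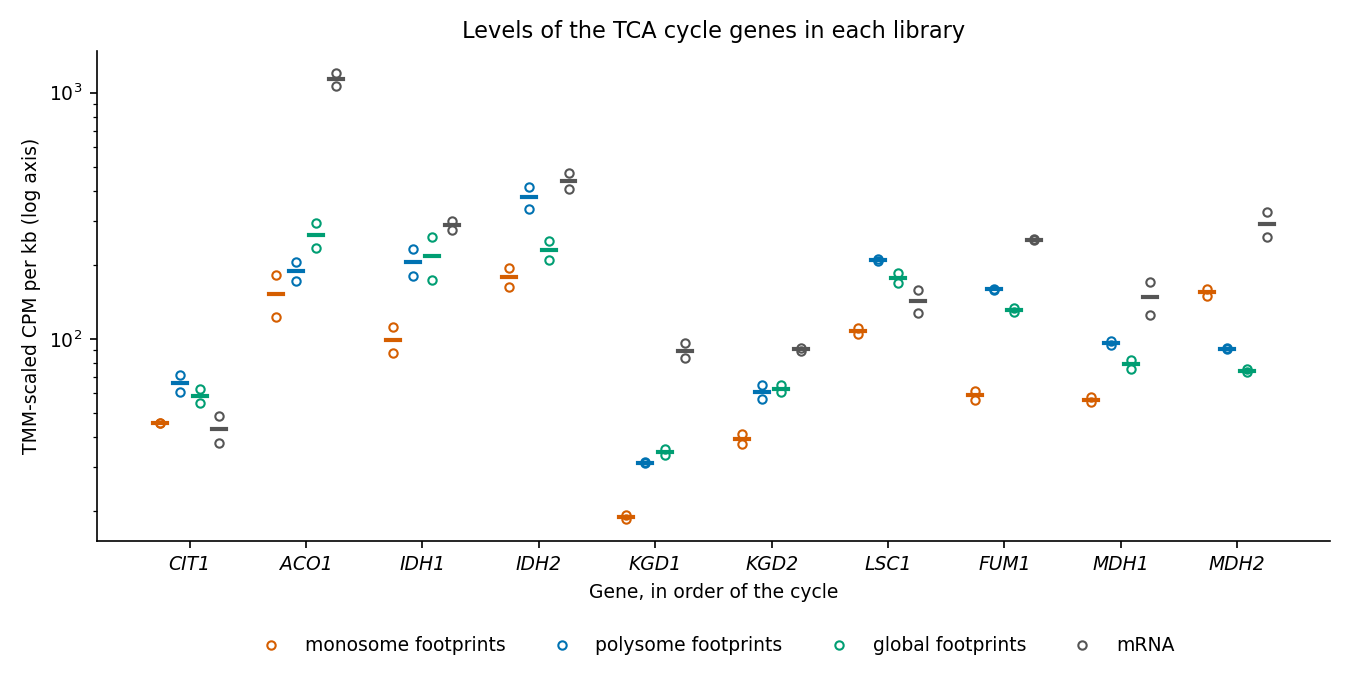
Level of each TCA cycle gene per library. The horizontal axis lists the genes in the order of the cycle and the vertical log axis gives TMM-scaled CPM per kb of coding length; open circles are libraries and bars are means of 2, coloured by group. ACO1 mRNA, with a mean of 1132, is the highest level drawn, and MDH2 is the gene whose monosome libraries lie above its polysome libraries.

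The comparison of monosome with polysome footprints addresses which mRNAs are translated by single ribosomes. Of the 10 genes, 9 were lower in monosomes than in polysomes and MDH2 was higher. Among all genes tested 70.2% were called in this comparison, 33.5% as lower and 36.6% as higher (edgeR adjusted p under 0.05). On the log2 scale, monosomes over polysomes, the 10 genes had a median of -0.75 against 0.05 over all genes tested and -0.02 over the 2887 tested genes with lengths in the range of the members, of which 36.3% were lower. The libraries of these groups did not overlap in 9 of the 10, with the monosome libraries lower in 8 and higher in 1; over all genes 84.4% did not overlap, 40.3% with monosomes lower and 44.1% with monosomes higher. The members are not independent of one another, and their count is a description. When libraries were scaled by their totals alone, the median of all genes moved to 0.50 and that of the members to -0.29. On that scale 6 members were lower and 1 higher, against 867 lower and 3030 higher of all 5336 genes tested. Directions are thus relative to the TMM scale.

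FUM1 differed most. It was at 90.1 and 82.6 CPM in monosomes and at 231 and 234 CPM in polysomes. Both monosome libraries lay far below both polysome libraries, with a log2 fold change of -1.43 (edgeR adjusted p = 5.85e-24, SE 0.10), lower than that of all but 1.57% of the genes tested.

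Both subunit genes of isocitrate dehydrogenase were lower in monosomes. IDH1 was at 94.5 and 120 CPM in monosomes and at 195 and 250 CPM in polysomes, a log2 fold change of -1.04 (edgeR adjusted p = 8.97e-15, SE 0.11). IDH2 was at 180 and 214 CPM in monosomes and at 375 and 459 CPM in polysomes, a log2 fold change of -1.08 (edgeR adjusted p = 1.22e-15, SE 0.11). In both genes library 2 was the higher of its group in each fraction, and the groups did not overlap. LSC1 was at 110 and 103 CPM in monosomes and at 209 and 205 CPM in polysomes (log2 fold change -0.96, edgeR adjusted p = 2.23e-15, SE 0.10). Its libraries were close within each group and separate between them.

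Smaller differences were seen at the remaining steps. MDH1 was at 55.6 and 58.1 CPM in monosomes and at 95.2 and 98.1 CPM in polysomes, a log2 fold change of -0.76 (edgeR adjusted p = 1.62e-10, SE 0.10). KGD1 was at 58.6 and 56.6 CPM against 95.7 and 95.5 CPM (-0.73, SE 0.10), and KGD2 at 52.1 and 57.2 CPM against 79.1 and 89.9 CPM (-0.62, SE 0.10). The monosome libraries were the lower in each of these genes, without overlap, and the edgeR adjusted p was 4.21e-10 for KGD1 and 1.02e-07 for KGD2. CIT1 was at 65.7 and 65.6 CPM in monosomes and at 87.5 and 102 CPM in polysomes, again without overlap (log2 fold change -0.53, edgeR adjusted p = 2.77e-06, SE 0.10). With library totals only, CIT1 (-0.08) and KGD2 (-0.17) no longer passed.

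ACO1 was the least certain of the 9. It was at 286 and 423 CPM in monosomes and at 400 and 479 CPM in polysomes, so monosome library 2 lay within the range of the polysome libraries. The log2 fold change was -0.31 (edgeR adjusted p = 0.0243, SE 0.12). It was -0.05 without monosome replicate 1 (edgeR adjusted p = 0.762), -0.20 without polysome replicate 2 (0.275), -0.06 under the stricter filter of a mean count of 100 or more (0.673) and 0.15 with library totals (0.281), and none of these passed. With DESeq2 the adjusted p was 0.184, and in the authors' deposited table the log2 fold change was -0.35 with an adjusted p of 0.285. ACO1 stayed called as lower with RLE size factors (-0.28), no low-count filter (-0.35), the compared groups alone (-0.31) and the replicate block (-0.32). Without monosome replicate 2 or polysome replicate 1 its log2 fold change was -0.62 or -0.43.

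MDH2 was the exception. It was at 169 and 181 CPM in monosomes and at 103 and 104 CPM in polysomes. Both monosome libraries lay above both polysome libraries, with a log2 fold change of 0.76 (edgeR adjusted p = 4.12e-11, SE 0.10), and 75.9% of the genes tested had a lower one. The call held in all 11 alternatives tried.

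**Figure D2:**
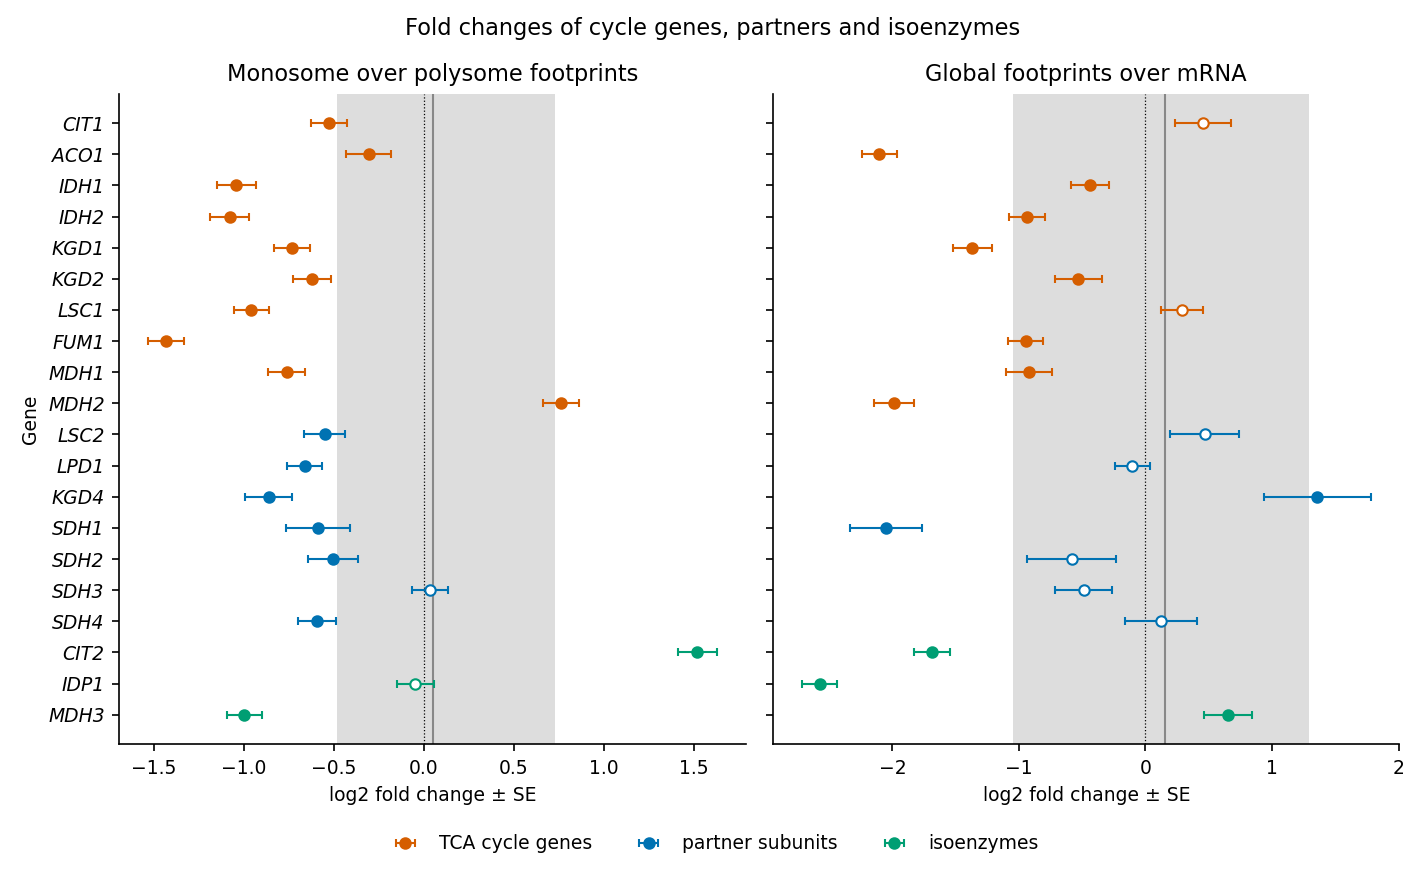
Log2 fold change ± SE of the cycle genes, partner subunits and reported isoenzymes, monosome over polysome footprints (left) and global footprints over mRNA (right). Filled symbols passed the edgeR threshold and open ones did not; the grey band spans the interquartile range of all 5336 genes tested and the grey line is their median, and CIT3 and IDP3 are not drawn because of low counts. MDH2 and CIT2 lie to the right on the left panel, at 0.76 and 1.52, and to the left on the right panel, at -1.99 and -1.69.

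Genes of partner subunits were mostly lower in monosomes too. Of 7 tested, 6 were lower: LSC2, the beta subunit of succinyl-CoA ligase (-0.55), LPD1, the dihydrolipoamide dehydrogenase shared by several complexes (-0.66), KGD4, a small subunit of the alpha-ketoglutarate dehydrogenase complex (-0.86), and the succinate dehydrogenase subunit genes SDH1 (-0.59), SDH2 (-0.51) and SDH4 (-0.59). SDH3, which encodes a membrane anchor of succinate dehydrogenase, had a log2 fold change of 0.04 (edgeR adjusted p = 0.762). The call of SDH1 was lost without polysome replicate 2 (-0.41), that of SDH2 with DESeq2 or the stricter count filter, and those of LSC2, SDH1, SDH2 and SDH4 with library totals, while SDH3 became higher with library totals (0.49) and with the stricter filter (0.28).

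The isoenzymes split. Of 5 tested, 2 were higher in monosomes and 1 was lower. CIT2, the peroxisomal citrate synthase, was at 503 and 607 CPM in monosomes and at 183 and 205 CPM in polysomes. All its monosome values lay well above its polysome values (log2 fold change 1.52, edgeR adjusted p = 3.32e-23, SE 0.11), the reverse of the mitochondrial CIT1. MDH3, the peroxisomal malate dehydrogenase, was at 82.4 and 76.8 CPM in monosomes and at 167 and 151 CPM in polysomes (-0.998, edgeR adjusted p = 3.73e-16, SE 0.10), the reverse of the cytosolic MDH2. CIT3, a minor mitochondrial citrate synthase with 6 to 26 counts per library in these fractions, was higher in monosomes (1.67, edgeR adjusted p = 0.000743, SE 0.45). The mitochondrial NADP-dependent isocitrate dehydrogenase gene IDP1 had a log2 fold change of -0.05, which turned to 0.40 and passed with library totals. The peroxisomal IDP3 had a log2 fold change of 0.43 and did not pass, but passed as higher with library totals (0.88). The cytosolic IDP2, at 0 to 2 counts, was not tested.

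Ratios of isoenzymes within a library do not depend on the scaling of libraries. The ratio of CIT2 to CIT1, in CPM per kb, was 7.98 and 9.62 in monosomes, 2.17 and 2.09 in polysomes, 2.98 and 2.18 in global footprints and 13.4 and 9.63 in mRNA. CIT2 thus had the higher level in each of the 8 libraries, and the ratio in both monosome and both mRNA libraries lay above that in the polysome and global libraries. Both genes encode similar proteins, and how reads matching several places were counted is not given in the sources used here, so these ratios are uncertain. The ratio of MDH2 to MDH1 was 2.69 and 2.76 in monosomes, 0.959 and 0.936 in polysomes, 0.922 and 0.970 in global footprints and 1.92 and 2.07 in mRNA. MDH2 was ahead in monosomes and in mRNA, and slightly behind in polysomes and in global footprints. The ratio of MDH3 to MDH1 was above 1 in the 6 footprint libraries (1.29 to 1.80) and below 1 in mRNA (0.469 and 0.674).

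Ratios of the subunits of a complex varied from complex to complex. The ratio of IDH1 to IDH2, which assemble in equal numbers in the enzyme, was 0.539 and 0.576 in monosomes, 0.534 and 0.558 in polysomes and 0.684 and 0.639 in mRNA. It was 0.829 and 1.04 in global footprints, above the other 6 libraries. The ratio of KGD2 to KGD1 was 1.70 to 2.21 in the 6 footprint libraries and 0.931 and 1.10 in mRNA. LSC2, whose product pairs with that of LSC1 in the enzyme, was at 0.154 to 0.328 of the LSC1 level in all 8 libraries, with the monosome libraries, at 0.303 and 0.328, the highest. With 2 libraries a group these ratios are described without a test.

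**Figure D3:**
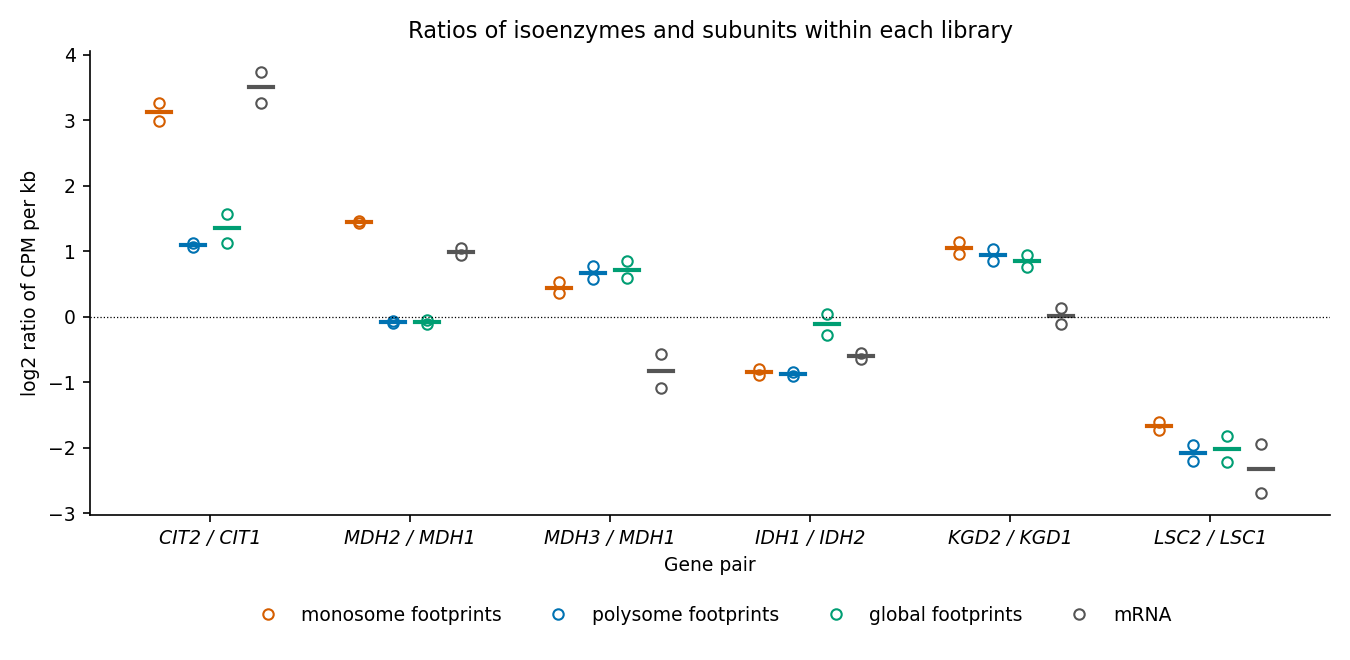
Log2 ratio of the levels of paired genes within each library. The horizontal axis gives the gene pair and the vertical axis the log2 ratio of CPM per kb; open circles are libraries, bars are means of 2 and colours are groups. The ratios of CIT2 to CIT1 and of MDH2 to MDH1 are higher in monosomes and mRNA than in polysomes and global footprints, and the ratio of IDH1 to IDH2 is highest in global footprints.

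The comparison of global footprints with mRNA gives the translational efficiency, the density of ribosomes relative to the mRNA. Here 8 of the 10 genes were lower in footprints than in mRNA and 0 were higher by edgeR (DESeq2 also gave 0, and 1 had an unadjusted p under 0.05). Among all genes tested 65.7% were called, 31.0% as lower and 34.8% as higher. The libraries of the groups did not overlap in any of the 10 genes, against 81.2% of all genes, with footprints lower in 8 (37.5% of all genes) and higher in 2 (43.7%). The median log2 fold change of global footprints over mRNA was -0.93 over the 10 genes and 0.15 over all genes tested. It was -0.20 over the 2887 tested genes with lengths in the range of the members, of which 37.9% were lower and 25.3% higher. Library totals moved the median of all genes to 0.91 and that of the members to -0.17, with 3 members lower and 2 higher. On that scale 1028 of the 5336 genes tested were lower and 2906 higher. Footprints were size-selected at 26 to 32 nt and mRNA fragments at 20 to 45 nt, and the part of this difference in the values was not tested.

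ACO1 was at 545 and 691 CPM in global footprints and at 2484 and 2808 CPM in mRNA. Its mRNA libraries lay far above its footprint libraries, with a log2 fold change of -2.10 (edgeR adjusted p = 4.73e-26, SE 0.14), lower than that of all but 12.6% of the genes tested. MDH2 was at 85.5 and 83.0 CPM in global footprints and at 370 and 294 CPM in mRNA (-1.99, edgeR adjusted p = 1.59e-20, SE 0.16). Its libraries were likewise separate. KGD1 was at 109 and 103 CPM in footprints and at 292 and 254 CPM in mRNA (-1.37, edgeR adjusted p = 2.02e-13, SE 0.15). These 3 genes also passed with library totals.

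FUM1, IDH2 and MDH1 shared similar values. FUM1 was at 195 and 189 CPM in global footprints and at 373 and 370 CPM in mRNA (-0.95, edgeR adjusted p = 2.26e-09, SE 0.14). IDH2 was at 232 and 278 CPM against 449 and 524 CPM (-0.94, edgeR adjusted p = 8.11e-09, SE 0.14). MDH1 was at 82.2 and 75.8 CPM against 171 and 126 CPM (-0.92, edgeR adjusted p = 7.13e-06, SE 0.18). None of the 3 overlapped between groups, and all lost the call with library totals, at -0.19, -0.18 and -0.16.

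KGD2 was at 84.4 and 90.1 CPM in global footprints and at 124 and 128 CPM in mRNA (-0.53, edgeR adjusted p = 0.00929, SE 0.19). Its call was lost without global replicate 1 (-0.48), without mRNA replicate 1 (-0.51) or 2 (-0.47), and its sign turned with library totals (0.23). IDH1 was at 188 and 280 CPM in global footprints and at 300 and 327 CPM in mRNA (-0.44, edgeR adjusted p = 0.00850, SE 0.15). Its call was lost without global replicate 1 (-0.16) and without mRNA replicate 2 (-0.33), and its sign turned with library totals (0.32).

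CIT1 and LSC1 did not pass. CIT1 was at 78.9 and 90.1 CPM in global footprints and at 54.3 and 69.7 CPM in mRNA, which did not overlap (0.45, edgeR adjusted p = 0.0650, SE 0.22), on 35 and 36 mRNA counts. LSC1 was at 167 and 183 CPM against 157 and 126 CPM (0.29, edgeR adjusted p = 0.114, SE 0.16). Both were higher in footprints and passed with library totals (1.22 and 1.05) and with no low-count filter (0.54 and 0.37), CIT1 also without mRNA replicate 2 (0.67) and LSC1 without mRNA replicate 1 (0.51). The fold changes of the 10 genes thus spanned from -2.10 to 0.45 on the log2 scale within 1 pathway.

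Among the partner subunits, 1 of 7 was lower and 1 higher in global footprints than in mRNA. SDH1, the flavoprotein of succinate dehydrogenase, was lower (-2.05, edgeR adjusted p = 9.81e-10, SE 0.29). KGD4 was higher (1.36, SE 0.42), on 10 and 3 mRNA counts, and lost its call without global replicate 1 (1.03) or mRNA replicate 2 (0.93). LSC2 (0.47), LPD1 (-0.10), SDH2 (-0.58), SDH3 (-0.49) and SDH4 (0.12) did not pass. SDH3 passed as lower with RLE size factors (-0.64), DESeq2 (-0.63), the stricter filter (-0.76) and the compared groups alone (-0.59), and without global replicate 2 (-0.73) or mRNA replicate 2 (-0.58). SDH2 passed as lower with the stricter filter (-0.85) and without global replicate 1 (-1.55). LPD1 passed as lower with the stricter filter (-0.37) and as higher with library totals (0.66). LSC2 and SDH4 passed as higher with library totals (1.24 and 0.88), LSC2 also without global replicate 1 (0.74) or mRNA replicate 1 (1.19). Of 5 tested isoenzymes, IDP1 (-2.58) and CIT2 (-1.69) were lower. MDH3 was higher (0.65, edgeR adjusted p = 0.00167, SE 0.19), the reverse of MDH1 and MDH2, but did not pass with the stricter filter (0.38, edgeR adjusted p = 0.0539). IDP3 passed as higher with 0 counts in both mRNA libraries and 3 and 6 global counts, and CIT3 had 1 and 0 global counts, so no fold is given for either.

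Each fraction was also compared with global footprints. These comparisons share libraries with those above and with each other, so their values stand side by side and are not independent. Of the 10 genes, monosomes were lower than global footprints in 8 and higher in MDH2. Among all genes tested 46.5% were called, 24.3% as lower and 22.2% as higher. Among the 2887 tested genes with lengths in the range of the members, 28.2% were called lower and 14.6% higher. No member overlapped between the monosome and global groups, against 73.6% of all genes without overlap. By this measure monosomes were lower in 9 (36.9% of all genes) and higher in 1 (36.7%). FUM1 (-1.16, SE 0.13), IDH1 (-1.09, SE 0.14), KGD1 (-0.88, SE 0.15), ACO1 (-0.79, SE 0.13), LSC1 (-0.71, SE 0.13) and KGD2 (-0.66, SE 0.16) passed with edgeR adjusted p from 5.53e-13 for FUM1 to 0.000253 for KGD2. MDH2 was higher by 1.05 on the log2 scale (edgeR adjusted p = 1.61e-09, SE 0.15). MDH1 (-0.48, edgeR adjusted p = 0.0107, SE 0.16) lost its call without global replicate 1 (-0.41). IDH2 (-0.36, edgeR adjusted p = 0.0169, SE 0.13) lost it with DESeq2 (adjusted p = 0.0602), with the stricter filter (-0.26) and without monosome replicate 1 (-0.24) or global replicate 2 (-0.23). CIT1 did not pass (-0.35, edgeR adjusted p = 0.0571, SE 0.16), but did so with no low-count filter (edgeR adjusted p = 0.0476). The isoenzyme gene CIT2 was higher in monosomes (1.41, edgeR adjusted p = 9.53e-17, SE 0.13) and MDH3 was lower (-0.74, SE 0.14).

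Of the partner subunits, LPD1 (-0.83) and SDH1 (-0.86) were lower in monosomes against global footprints, and SDH3 was higher (0.53). Both succinate dehydrogenase calls were lost without global replicate 1, at -0.34 for SDH1 and 0.28 for SDH3. LSC2 (-0.36), KGD4 (-0.34), SDH2 (0.05) and SDH4 (0.30) did not pass, but LSC2 did so without global replicate 1 (-0.62). The isoenzyme genes IDP1 (0.25) and IDP3 (-0.79) did not pass, but IDP1 passed as higher with the stricter filter (0.35).

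Polysome footprints were closer to global footprints. Of the 10 genes, IDH2 was higher and ACO1 lower in polysomes, against 23.5% of all genes called, 13.5% higher and 10% lower. Libraries did not overlap in 7 of the 10, against 62.4% of all genes, with polysomes higher in 5 (31.5% of all genes) and lower in 2 (30.8%). IDH2 was at 375 and 459 CPM in polysomes and at 232 and 278 CPM in global footprints, without overlap (log2 fold change 0.72, edgeR adjusted p = 3.61e-06, SE 0.13), while its partner IDH1 was at 195 and 250 CPM against 188 and 280 CPM (-0.05, edgeR adjusted p = 0.819, SE 0.13). The IDH1 values of polysomes thus lay within those of the global libraries. ACO1 (-0.49, edgeR adjusted p = 0.00347, SE 0.13) lost its call without polysome replicate 1 (-0.36) or global replicate 2 (-0.31). The other 7 genes ranged from -0.15 for KGD1 to 0.29 for MDH2 and did not pass. With library totals the median of all genes was -0.46 and that of the members -0.24. The edgeR calls were then 0 higher and 4 lower, namely ACO1, IDH1, KGD1 and KGD2. Over all 5336 genes tested they were 181 higher and 2002 lower, so the members' counts were near the background. Of the partner subunits SDH4 (0.89) and SDH3 (0.50) were higher in polysomes. SDH3 lost its call with DESeq2, the stricter filter (0.35), library totals (0.048) and without global replicate 1 (0.24), and SDH4 lost it with library totals (0.45). SDH2 passed as higher without global replicate 1 (1.52), and LPD1 as lower with the stricter filter (-0.31) and library totals (-0.61). None of the 5 tested isoenzymes passed (0 by edgeR and 0 by DESeq2, while 2 had an unadjusted edgeR p under 0.05). With library totals CIT2 (-0.55) and IDP3 (-1.66) passed as lower, and without polysome replicate 2 MDH3 passed as higher (0.40).

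The global libraries were also set against both fractions. In 7 of the 10 genes the 2 global libraries did not both lie above, or both below, the 4 fraction libraries. ACO1, at 545 and 691 CPM, and KGD1, at 109 and 103 CPM, lay above all 4, whose highest values were 479 and 95.7 CPM. MDH2, at 85.5 and 83.0 CPM, lay below all 4, whose lowest value was 103 CPM. Of all genes tested 15.6% lay above and 15.4% below in this way, so the members' counts were near the background.

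In the wider pathway of 43 listed genes, 39 were tested; relative to polysomes, monosomes were higher in 11 (28.2%) and lower in 17 (43.6%), against 36.6% and 33.5% of all genes tested. The 7 genes of pyruvate entry (the pyruvate dehydrogenase complex, pyruvate carboxylase and malic enzyme) were all lower on the TMM scale, the smallest difference being -0.25. The pyruvate carboxylase gene PYC2 was at -1.18 and LAT1, the acetyltransferase of pyruvate dehydrogenase, at -0.94. Only PYC2 and LAT1 of the 7 were followed through the alternatives here. Library totals moved the median of all genes from 0.05 to 0.50. The directions of MAE1 (-0.25), PDA1 (-0.47) and PDX1 (-0.48) are therefore given for the TMM scale alone. Both tested genes of the glyoxylate cycle and gluconeogenesis were higher. PCK1, the phosphoenolpyruvate carboxykinase that follows Mdh2 in gluconeogenesis, had 47 and 78 counts in monosomes and 10 and 9 in polysomes (2.76, edgeR adjusted p = 7.67e-12, SE 0.34). ICL1, isocitrate lyase, had 25 and 34 against 14 and 19 counts (0.90, edgeR adjusted p = 0.0206, SE 0.36), and its call was lost with DESeq2 and without either monosome replicate (0.88 and 0.93) or polysome replicate 1 (0.63). Of 9 tested mitochondrial carriers 4 were higher, among them the mitochondrial pyruvate carrier genes MPC3 (1.41) and MPC1 (1.22), and 1 was lower, the dicarboxylate carrier gene DIC1 (-0.63). Of 9 regulators 3 were higher and 2 lower, and the higher shares of carriers (44.4%) and regulators (33.3%) were near the 36.6% of all genes. RTG1, a transcription factor of the retrograde pathway, was at 1.20 and HAP4, the activating subunit of the Hap complex that drives respiratory genes, at 0.91. RTG2, the sensor of the retrograde pathway, was at -0.71, and HAP1, the haem-responsive activator, at -0.30. With library totals RTG2 (-0.26) and DIC1 (-0.18) lost their calls and the sign of HAP1 turned (0.15). The call of HAP1 was also lost with the stricter filter (-0.06) and without monosome replicate 1 (-0.20) or polysome replicate 2 (-0.29).

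In global footprints against mRNA, 11 of the 39 were higher (28.2%) and 15 lower (38.5%), against 34.8% and 31.0% of all genes tested. Of the 7 pyruvate entry genes 6 were lower, with PYC2 at -3.11 and PYC1 at -2.59, and PDX1, a structural component of pyruvate dehydrogenase, was higher (2.67) on 11 and 5 mRNA counts. Of the carriers, MPC1 (3.19, on 1 and 7 mRNA counts) and MPC2 (1.04) were higher and the oxodicarboxylate carrier gene ODC2 (-3.32) and DIC1 (-1.74) were lower. Of the regulators 5 were higher, with HAP3 and RTG1 the highest, and HAP1 was lower (-2.44). HAP3, a DNA-binding subunit of the Hap complex, was at 1.76 on 3 and 6 mRNA counts, a call lost without mRNA replicate 1 (1.22). RTG1 was at 1.16 on 6 and 8 mRNA counts. Its call was lost with DESeq2, with the stricter filter (0.89) and without global replicate 2 (0.95) or mRNA replicate 1 (0.84). ICL1 was lower (-2.13, on 4 and 1 global counts), a call lost with library totals and without global replicate 2 (-1.63) or mRNA replicate 1 (-2.07).

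The genes nearest to the median profile of the members across the 8 libraries, by Euclidean distance of centred log2 CPM, were NOG2 (0.310), YHR112C (0.311), BUL1 (0.333), SOL3 (0.359) and YDL086W (0.363), against a median distance of 2.32 over 3076 candidates. The members themselves lay at 0.320 for KGD2, 0.371 for MDH1, 0.619 for IDH2, 0.668 for IDH1, 0.825 for FUM1, 1.02 for KGD1, 1.38 for LSC1, 1.67 for CIT1, 1.99 for MDH2 and 2.12 for ACO1. ACO1 and MDH2 were thus the members farthest from this median profile. The profile is built from the members themselves, so these distances do not test whether the members share one. The candidates averaged 100 or more counts per library.

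Libraries of a group did not differ alike for all members. In ACO1, IDH1, IDH2 and KGD2 library 2 was higher than library 1 in all 4 groups. The log2 ratio of library 2 to library 1 of ACO1 was 0.57 in monosomes, 0.26 in polysomes, 0.34 in global footprints and 0.18 in mRNA. For IDH2 it was 0.26, 0.29, 0.26 and 0.22 in the same order. KGD1 was lower in library 2 of each group, by values from -0.20 to -0.00284. Of all genes tested, 6.24% were higher and 9.01% lower in library 2 of each group.

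**Figure D4:**
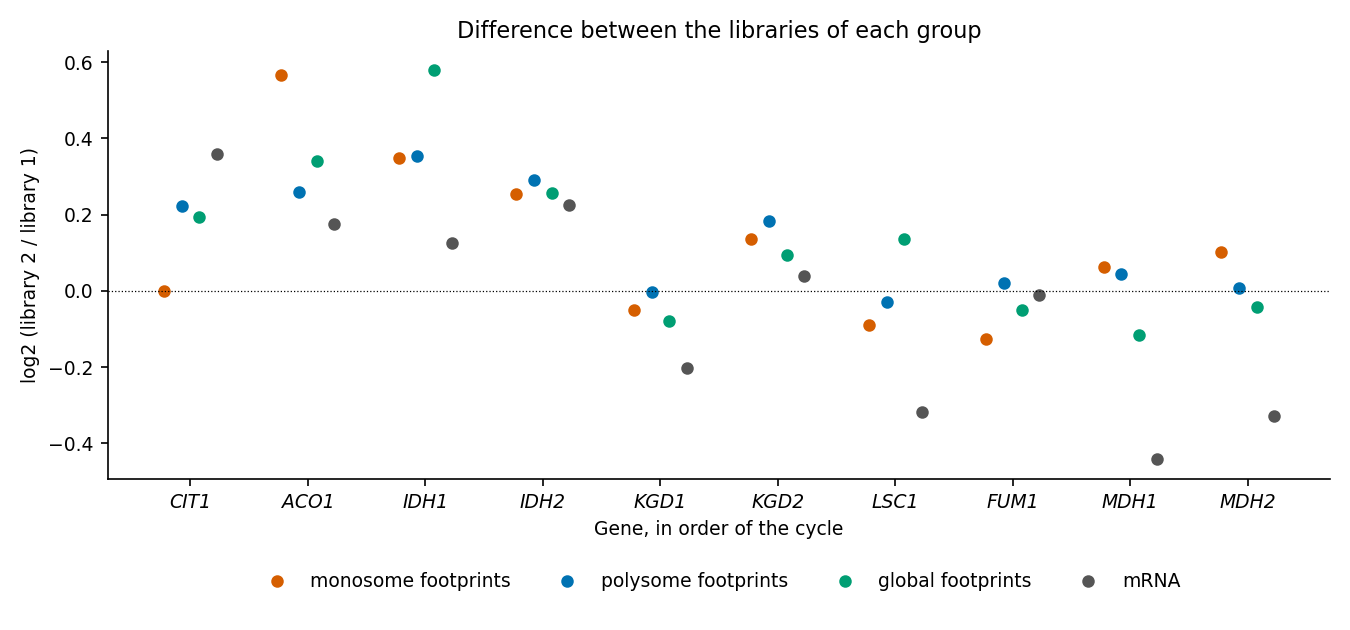
Log2 ratio of library 2 to library 1 within each group. The horizontal axis lists the genes in the order of the cycle, and the vertical axis is the log2 ratio of TMM-scaled CPM; each point is a group. All 4 points of ACO1, IDH1, IDH2 and KGD2 lie above 0.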

How the data were processed

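Counts per gene and library are used as deposited. The submitters' processing notes name TopHat, Bowtie, HTSeq and the sacCer3 build, without versions. Whether strand was used in counting, and how multiply matching reads were treated, is not given in the sources used here. The deposited table also holds the authors' log2 fold change and adjusted p-value from DESeq2, per the file headers. Its comparison is not named, and the sign follows monosome over polysome counts.

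Genes were tested with the quasi-likelihood F test of edgeR 4.0.16 (R 4.3.3) in 1 fit of 8 libraries and 4 groups, with TMM factors, filterByExpr (minimum count 10, minimum total 15), Benjamini-Hochberg adjustment over 5336 genes and a threshold of 0.05. SE is the absolute log2 fold change divided by the square root of F and restates that test. Tests were run on simulated counts first. In monosome against polysome, 59.7% of simulated log2 changes of 0.5 and 94% of changes of 1 were called. In global against mRNA these shares were 10.4% and 52.2%, so a gene that did not pass there may still differ. Alternatives were RLE size factors, library totals, no filter, a mean of at least 100 counts, DESeq2 1.42.0, the compared groups alone, a replicate block and leaving out each library; a group left with 1 library is assumed to vary like the others.

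The members and lists were chosen with earlier results of these data known. All members are named; partner subunits and isoenzymes are named where tested, and in other classes up to 2 genes each way per comparison past the threshold, of which some are given only as counts. Symbols and lengths come from the RefSeq R64 table, which matched 6008 of 6692 identifiers and all 53 listed genes. Results for 1 further isoenzyme gene are not reported here. The counts of the libraries in each pair were compared and differed beyond counting error (chi-square over degrees of freedom 1.49 to 5.42). Figures used Python 3.11.15 with matplotlib 3.10.9.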

Additional observations from a re-analysis of the deposited data

How the results depend on the processing

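The global and mRNA libraries were the shallowest, where members had 53 to 491 global counts and 35 to 1600 mRNA counts. The number of members called was 10, 8, 9 and 2 for monosome against polysome, global against mRNA, monosome against global and polysome against global. With library totals it became 7 for monosome against polysome, 5 for global against mRNA and 4 for polysome against global. Leaving out 1 library gave 9 to 10, 6 to 8, 8 to 9 and 1 to 2. Same-numbered libraries deviated together weakly, with a positive r in all 6 pairs of groups (0.0456 to 0.101 over 3086 genes). Single genes such as NCE103 were higher in library 2 of every group (log2 ratios 0.73, 0.98, 0.74 and 0.70). The labels do not say whether the numbers mark a pairing, and the main tests did not use one. With the replicate block 10, 8, 10 and 2 members were called. The added one was CIT1 in monosome against global (-0.36, edgeR adjusted p = 0.0456).

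Over all genes, the stricter filter, which tests 3086 genes, called 2308 instead of 3744 for monosome against polysome and 2286 instead of 3508 for global against mRNA. In polysome against global 1254 genes were called, 720 higher and 534 lower, against 2183 with library totals (181 higher, 2002 lower), 767 without global replicate 1 and 745 without global replicate 2. Without polysome replicate 2 the higher calls were 68.7% of the total instead of 57.4%. Library totals gave 3030 higher and 867 lower instead of 1954 and 1790 for monosome against polysome, and 2906 and 1028 instead of 1855 and 1653 for global against mRNA.

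Signs turned as follows, and apart from the scaling itself the cause was not tested. With library totals they turned for ACO1 (0.15), IDP1 (0.40) and HAP1 (0.15) in monosome against polysome, for IDH1 (0.32), KGD2 (0.23), LPD1 (0.66), SDH2 (0.17) and SDH3 (0.28) in global against mRNA, and for CIT1 (-0.27), LSC1 (-0.20), FUM1 (-0.17), MDH1 (-0.16), MDH2 (-0.16), LSC2 (-0.25), IDP1 (-0.14), MDH3 (-0.19), MAE1 (-0.055) and LAT1 (-0.063) in polysome against global. In monosome against polysome SDH3 was -0.0033 with no filter and IDP1 was 0.19 with the stricter filter. In global against mRNA SDH4 was -0.033 with RLE factors, -0.15 with the stricter filter and -0.036 with DESeq2. Leaving out 1 library gave ranges across 0 for SDH3 (-0.0018 to 0.077) and IDP1 (-0.16 to 0.040) in monosome against polysome, LPD1 (-0.26 to 0.018) and SDH4 (-0.0061 to 0.32) in global against mRNA, SDH2 (-0.43 to 1.01) in monosome against global, and IDH1 (-0.33 to 0.24), KGD2 (-0.095 to 0.047), LSC2 (-0.073 to 0.45), SDH1 (-0.58 to 0.25), CIT2 (-0.22 to 0.038) and CIT3 (-0.017 to 5.28) in polysome against global.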

Other observations

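A fit with the replicate number as a term, made after the values were seen, compared libraries numbered 2 with those numbered 1. Among all genes tested 0.431% passed (edgeR adjusted p under 0.05), which is 23 genes, 16 higher and 7 lower. ACO1 (0.34, SE 0.07, edgeR adjusted p = 0.00167, higher in 4 of 4 groups) and IDH1 (0.35, SE 0.07, edgeR adjusted p = 0.00335, also in 4 of 4 groups) were among those higher, as was the pyruvate carboxylase gene PYC1 (0.32, edgeR adjusted p = 0.0116). IDH2 (0.26, edgeR adjusted p = 0.0616) and CIT1 (0.14, edgeR adjusted p = 0.724) did not pass, and neither did the other 6 members, from -0.06 for KGD1 to 0.14 for KGD2. In background, CIT1, ACO1, IDH1 and IDH2 are the steps of the cycle that lead to glutamate and come under retrograde control by the Rtg factors when respiration is impaired. Whether that control bears on these values was not tested. The isoenzyme gene CIT2 did not pass (0.09, edgeR adjusted p = 0.816). NCE103, the carbonic anhydrase gene next to IDH1 on chromosome XIV (559814 to 560479, with 811 bases between them and on the opposite strand), was also higher (0.82, edgeR adjusted p = 3.69e-13), as were the copper and iron uptake genes CTR1 (0.66) and FRE1 (0.70). These genes were singled out after their values were seen.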
